A study of Bos taurus with 3 samples.

Results

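The complement genes C1QA, C1QB, C1QC, C1R, C1S, C3, CFD, SERPING1 and CD55 are described here by the cell class that carried them in the newborn rumen. They are 9 of the 27270 gene rows of the count matrices and were taken by gene symbol alone. Rumen tissue came from 3 newborn Holstein dairy calves, 1 day after birth and untreated, with 1 droplet library for the 3' ends of transcripts per calf. The outer muscle had been stripped off, and the tissue was dissociated with EDTA and trypsin and then with collagenases, dispase, hyaluronidase and DNase I. The 3 calves are the replicates, and the adult cattle of the study were not analysed here.

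Complement is a cascade of soluble and membrane proteins that marks microbes and dying cells for removal. C1q, assembled from the chains A, B and C, binds antibody and other surfaces and switches on the serine proteases C1r and C1s, which open the classical pathway. All pathways meet at C3, factor D (CFD) is the protease that starts the alternative pathway's convertase, C1 inhibitor (SERPING1) blocks C1r and C1s, and CD55 (decay-accelerating factor) dismantles convertases on the body's own cells. Tissue macrophages are a known source of C1q, and stromal cells of C1r, C1s and C1 inhibitor.

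Transcripts were counted as unique molecular identifiers (UMIs). A level is a gene's UMIs per 10000 UMIs after adding up all cells that a calf had in a class. After filtering, 23668 cells remained, of which 20800 were epithelial, 1306 endothelial, 466 fibroblasts, 305 mural cells or myofibroblasts, 290 T or NK lymphocytes, 271 dendritic cells, 114 macrophages and 28 plasmacytoid dendritic cells, and 88 immune cells were left unnamed. No gene of a 56-gene complement list took part in the clustering, and the members took no part in the names. FCN1, a gene of that list but not a member, was among the naming markers. The classes expressed their own markers: 10 of 12 epithelial, 11 of 12 endothelial, 12 of 12 fibroblast, 10 of 12 mural, 8 of 12 dendritic, 8 of 12 macrophage and 11 of 12 lymphocyte markers reached a level of 0.5 in their own class. The macrophage class also carried dendritic markers at a summed level of 345, against 355 in dendritic cells. These sums include BOLA-DRA and CD74, which were among the leading genes of a broad immune cluster. They therefore do not by themselves tell the macrophage class from dendritic cells. Macrophage markers of the macrophage class summed to 27.4 in cells with 3 or more C1q UMIs and 18.9 in the rest. In dendritic cells these sums were 19.4 and 6.15. Of its cells, 86 came from a cluster led by TTR, with 3 macrophage markers at 2-fold over other immune cells. The remaining 28 came from a cluster led by APOE, with 9. No macrophages were named without Harmony or at a 20% mitochondrial limit, so the name is provisional. Calf 1 gave 2 macrophages, 2 dendritic cells, 3 lymphocytes, 6 mural cells and 16 fibroblasts, and calf 3 gave 99 of the 114 macrophages. A class of a calf entered a mean or a test from 5 cells on, so immune values rest on calves 2 and 3. The stromal cells of calf 1 carried many epithelial UMIs. Epithelial markers summed to 102, 28.1 and 14.3 in fibroblasts of calves 1, 2 and 3, and to 170, 23.4 and 9.25 in mural cells. In epithelial cells with under 3 C1q UMIs the sums were 200, 218 and 179. The stromal values of calf 1 entered means and tests as they were, and the cause was not tested. The kept cells of any 2 calves shared 8 to 25 barcodes. The libraries held 82263092 to 106145091 UMIs, and intervals below are 95% exact Clopper-Pearson intervals. A limit given for a count of 0 is instead 3 cells of the total and limits cells with a UMI, not cells that express the gene. Both cover counting error only.

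The chains of C1q were found mainly in the class named macrophages. The C1QA level in macrophages was 34.6 in calf 2 and 18.5 in calf 3, a mean of 26.5 ± 11.4 (SD, n = 2 calves), and the 2 macrophages of calf 1 stood at 13.3. C1QB was 15.1 and 11.3 in macrophages of calves 2 and 3, or 13.2 ± 2.67, and C1QC was 22.1 and 17.99, or 20.0 ± 2.89. In epithelial cells the levels of C1QA were 0.000599, 0.00133 and 0.00219 in calves 1, 2 and 3, far below the macrophages of every calf. Fibroblasts held 0 UMIs of the 3 chains in 466 cells, which allows a share of cells with a UMI of a given chain of up to 0.644% at their median depth of 1880 UMIs. C1QA was found in 13 of 13 macrophages of calf 2 and in 53 of 99 of calf 3 (53.5%, interval 43.2% to 63.6%), against 26 of 20800 epithelial cells (0.125%), at median depths of 5851.5 UMIs in macrophages and 7773.5 in epithelial cells. Over the pooled thinned cells the shares were 57.0% and 0.0196%. Macrophages were 0.482% of the kept cells and held 70.04% of the C1QA, 72.1% of the C1QB and 72.5% of the C1QC UMIs.

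The chains were found together in the same cells. Of 77 macrophages with a UMI of any chain, 61 had UMIs of all 3. After thinning every cell to 2000 UMIs, all 3 chains were found in 48 of 68 such cells. In the macrophages of calf 3, C1QA, C1QB and C1QC gave 38.7%, 23.6% and 37.6% of the C1q UMIs, and in those of calf 2 48.2%, 21.0% and 30.8%. The order of A, C and B was the same in both calves, though A and C were close in calf 3. In the TTR-led cluster of calf 3 C came first, with 37.4% against 35.9% for A.

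Macrophages were not uniform in C1q. All 13 macrophages of calf 2 had 3 or more C1q UMIs, while in calf 3 this was so for 54 of 99, which held 2667 of the 2677 C1q UMIs. The 45 others of calf 3 were not shallower, with a median of 6437 UMIs against 5427. Their summed level of macrophage markers was 18.9 against 27.5, and that of dendritic markers 357 against 315. The dendritic sums include BOLA-DRA and CD74. By cluster, 26 of 28 cells of the cluster led by APOE (a lipid carrier) and FOLR2 (a folate receptor of tissue macrophages) had 3 or more C1q UMIs, against 43 of 86 in the cluster led by TTR and the chemokine gene CCL2. In calf 2 the latter held 12 of the 13 macrophages, and in calf 3 it held 72 of 99. The C1QA level of the APOE cluster was 43.0 in the 27 cells of calf 3, and that of the TTR cluster was 33.0 in calf 2 and 9.43 in calf 3. In thinned cells the C1QA share was 88.5% (23 of 26) and 46.9% (38 of 81), and unthinned it was 89.3% and 50.0%. The clusters were named and set side by side with their values known, so this difference carries no test.

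Another myeloid cluster, led by FCN1 (ficolin, a lectin of the complement system that monocytes make), S100A9 and CD14, was left unnamed. Macrophages were its best-matching list, with 5 markers, but its 10 leading genes held as many markers of another class as of macrophages. The marker of the other class was FCN1 itself, a complement-list gene that stood on the list for granulocytes or mast cells. The 36 cells of this unnamed cluster had C1q in a few cells at high level: 9 had a UMI of a chain and together held 893 C1q UMIs, while 27 had none. Its pooled C1QA level was 27.7, with 28.2 in calf 2, 35.2 in calf 3 and 0 in the 3 cells of calf 1. C1QA was found in 24.1% of its thinned cells (7 of 29) against 57.0% in macrophages (61 of 107), and unthinned in 22.2% and 59.6%.

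**Figure D1:**
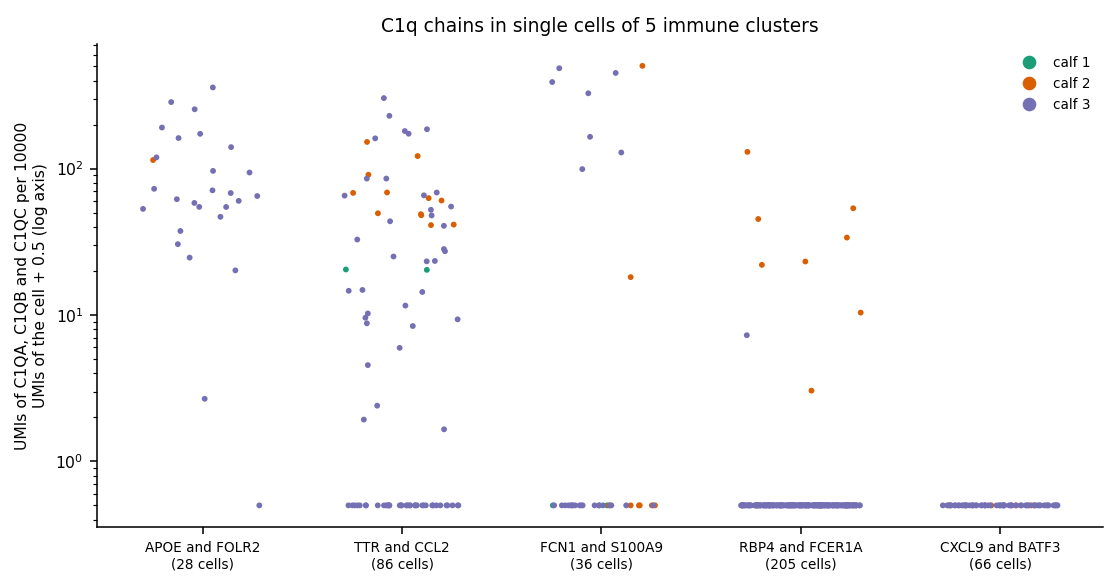
UMIs of the C1q chains per 10000 UMIs of each cell, plus 0.5, on a log axis, for single cells of 5 immune clusters named by leading genes; each point is a cell, coloured by calf, and the bottom row holds cells with 0. Nearly all cells of the APOE and FOLR2 cluster are above the bottom row, the TTR and CCL2 and the FCN1 and S100A9 clusters are divided, and the dendritic clusters on the right lie at 0 apart from 9 cells, 8 of them of calf 2.

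In epithelial cells 68 C1q UMIs were scattered over 58 of 20800 cells, whereas in dendritic and endothelial cells they sat in a handful of cells. Dendritic cells of calf 2 had a C1QA level of 6.95 and those of calf 3 of 0.00586, so the calves did not resemble each other. In calf 2, 7 of 19 dendritic cells held 166 of the 167 C1q UMIs, and these 7 had macrophage markers at a summed level of 19.4 against 8.69 in the other 12. In calf 3 there was 1 C1q UMI in 250 dendritic cells. In endothelial cells of calf 3, 2 of 679 cells held 149 of 153 C1q UMIs, and macrophage markers in these 2 cells reached 13.7 against 1.25 in the rest; calf 1 had no C1q UMI in endothelial cells and calf 2 had 3. Whether these cells are droplets with a macrophage and another cell was not tested.

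C1R and C1S were highest in fibroblasts in every calf. The C1R level in fibroblasts was 3.11, 3.84 and 4.67 in calves 1, 2 and 3, a mean of 3.88 ± 0.781 (SD, n = 3), and that in epithelial cells was 0.173, 0.151 and 0.251. C1S in fibroblasts was 5.49, 5.04 and 6.22, a mean of 5.59 ± 0.596, and in epithelial cells 0.0762, 0.0514 and 0.0886. Fibroblasts were above epithelial cells for both genes within each calf. Mural cells lay between, with C1R at 0.359 and 0.885 and C1S at 0.628 and 1.16 in calves 2 and 3, and no UMI of either in the 6 mural cells of calf 1. Epithelial markers in those 6 cells summed to 170. In thinned cells, C1R was found in 40.8% ± 11.8 of fibroblasts and 4.12% ± 1.09 of epithelial cells, and C1S in 58.9% ± 4.10 and 1.53% ± 0.340. Unthinned, the C1R shares were 48.7% and 15.4%, at median depths of 1880 and 7773.5 UMIs. Endothelial cells, at a median of 3993 UMIs, had C1R in 0.758% of thinned and 1.36% of all cells. How much of the epithelial shares is background was not tested.

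The proteases differed in their balance between classes. C1R made up 69.4%, 74.6% and 73.9% of the C1R and C1S UMIs together in epithelial cells of calves 1, 2 and 3, and 36.2%, 43.2% and 42.9% in fibroblasts. In each calf the interval of the epithelial share lay above that of the fibroblast share, for instance 72.1% to 75.7% against 38.6% to 47.2% in calf 3. Mural cells resembled fibroblasts, with 36.4% and 43.3% in calves 2 and 3. Since 20800 of the cells were epithelial, they held 87.0% of all C1R and 67.5% of all C1S UMIs, against 10.0% and 28.1% in fibroblasts.

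Plasmacytoid dendritic cells had C1R without C1S. The 28 cells, all from calf 3, had 30 C1R UMIs in 13 cells, a level of 2.40, and 0 C1S UMIs. The cell with most held 11 of the 30. C1R was thus 100% of the UMIs of the pair, with an interval of 88.4% to 100%. With 1 calf this has no replicate check.

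C3 was sparse, with 190 UMIs in all kept cells, 86 of them in fibroblasts. The C3 level in fibroblasts was 1.65, 0.500 and 1.12 in calves 1, 2 and 3, a mean of 1.09 ± 0.575. These levels rest on 9, 22 and 55 UMIs, and in calf 1 the 9 lay in 3 of 16 cells. Macrophages had 0.490 and 0.322 in calves 2 and 3, a mean of 0.406 ± 0.119, on 4 and 18 UMIs. Calf 2's values in the 2 classes were alike, on few UMIs. Epithelial cells had 0.00140, 0.00222 and 0.00600. No C3 UMI was found in 1306 endothelial or 305 mural cells, which allows shares of cells with a UMI of up to 0.230% and 0.984%. C3 was found in 16.7% ± 9.82 of thinned fibroblasts and 10.95% ± 6.27 of thinned macrophages, against 0.0736% of thinned epithelial cells; the unthinned shares were 12.9%, 18.6% and 0.235%.

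CFD was shared by myeloid and stromal cells. In macrophages its level was 23.2 and 12.9 in calves 2 and 3, a mean of 18.04 ± 7.27. In fibroblasts it was 8.06, 6.93 and 18.02 in calves 1, 2 and 3, a mean of 11.003 ± 6.10. In dendritic cells it was 15.0 and 4.26, and in mural cells 0.710, 5.77 and 12.7. These 4 classes overlapped from calf to calf, and their order differed: in calf 2 macrophages and dendritic cells led, and in calf 3 fibroblasts led. Epithelial cells stood at 0.00140, 0.00296 and 0.00790, below all 4 in every calf.

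The classes carried CFD in different shares of their cells. CFD was found in 91.3% ± 12.3 of thinned macrophages and 66.0% ± 18.2 of thinned dendritic cells, but in 49.0% ± 16.2 of thinned fibroblasts and 26.0% ± 9.97 of thinned mural cells. The unthinned shares were 98.0%, 84.1%, 53.3% and 24.8%. Thinned epithelial cells had it in 0.0905% and thinned lymphocytes in 4.10%, where 1 cell of calf 2 held 7 of the 14 UMIs. In fibroblasts 111 of 466 cells held 1092 of 1232 CFD UMIs, and in mural cells 63 of 305 held 804 of 843. The unnamed FCN1 cluster had the highest CFD, at 33.4, 62.3 and 57.5 in calves 1, 2 and 3, with 3, 8 and 25 cells.

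SERPING1 reached its highest levels in stromal cells, while the numerous epithelial cells held 43.8% of its UMIs (83.3% in calf 1), fibroblasts 35.4% and mural cells 14.6%. Its level in fibroblasts was 6.23, 12.3 and 11.8 in calves 1, 2 and 3, a mean of 10.1 ± 3.38, and in mural cells 1.42, 7.0 and 4.70, a mean of 4.37 ± 2.80. Fibroblasts were above mural cells within each calf, though calf 1's fibroblasts lay below calf 2's mural cells. Endothelial cells had 0.145, 0.325 and 0.281, and epithelial cells 0.0439, 0.0998 and 0.0779. Macrophages and plasmacytoid dendritic cells had 0 SERPING1 UMIs in 114 and 28 cells. The 12 SERPING1 UMIs of dendritic cells lay in 2 cells. SERPING1 was found in 77.4% ± 8.37 of thinned fibroblasts, 52.4% ± 11.5 of mural, 4.70% ± 1.66 of endothelial and 1.53% ± 0.468 of epithelial cells, against 77.3%, 55.9%, 8.59% and 5.92% unthinned.

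Some fibroblasts held the inhibitor together with both of its target proteases. Of 466 fibroblasts, 330 had C1R or C1S, and 125 had UMIs of C1R, C1S and SERPING1, or 53 of 195 after thinning. The class named macrophages, the main C1q source, had 4 C1R, 0 C1S and 0 SERPING1 UMIs in 114 cells. The parts of the C1 complex thus lay mainly in different classes, with the C1q chains in macrophages and the proteases in fibroblasts and, at low level, in epithelial cells.

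Epithelial cells held nearly all CD55 UMIs, at a level per cell class close to that of fibroblasts. The CD55 level in epithelial cells was 0.410, 0.477 and 0.666 in calves 1, 2 and 3, a mean of 0.518 ± 0.133, and these cells held 97.4% of its 10092 UMIs. Fibroblasts had 0.366, 0.250 and 0.531, endothelial cells 0.290, 0.189 and 0.218, and mural cells 0, 0.120 and 0.118. Epithelial cells were above the fibroblasts of their own calf in all 3 calves, but the ranges over calves overlapped. CD55 was found in 10.2% ± 2.51 of thinned epithelial cells, 6.38% ± 3.35 of fibroblasts, 3.37% ± 0.504 of endothelial and 1.06% ± 1.23 of mural cells. Unthinned, the shares were 34.8%, 8.90%, 9.34% and 1.78%. The FCN1 cluster stood above the epithelium, at 3.71, 4.66 and 3.62 in calves 1, 2 and 3, with CD55 in 65.5% of its thinned cells (19 of 29).

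**Figure D2:**
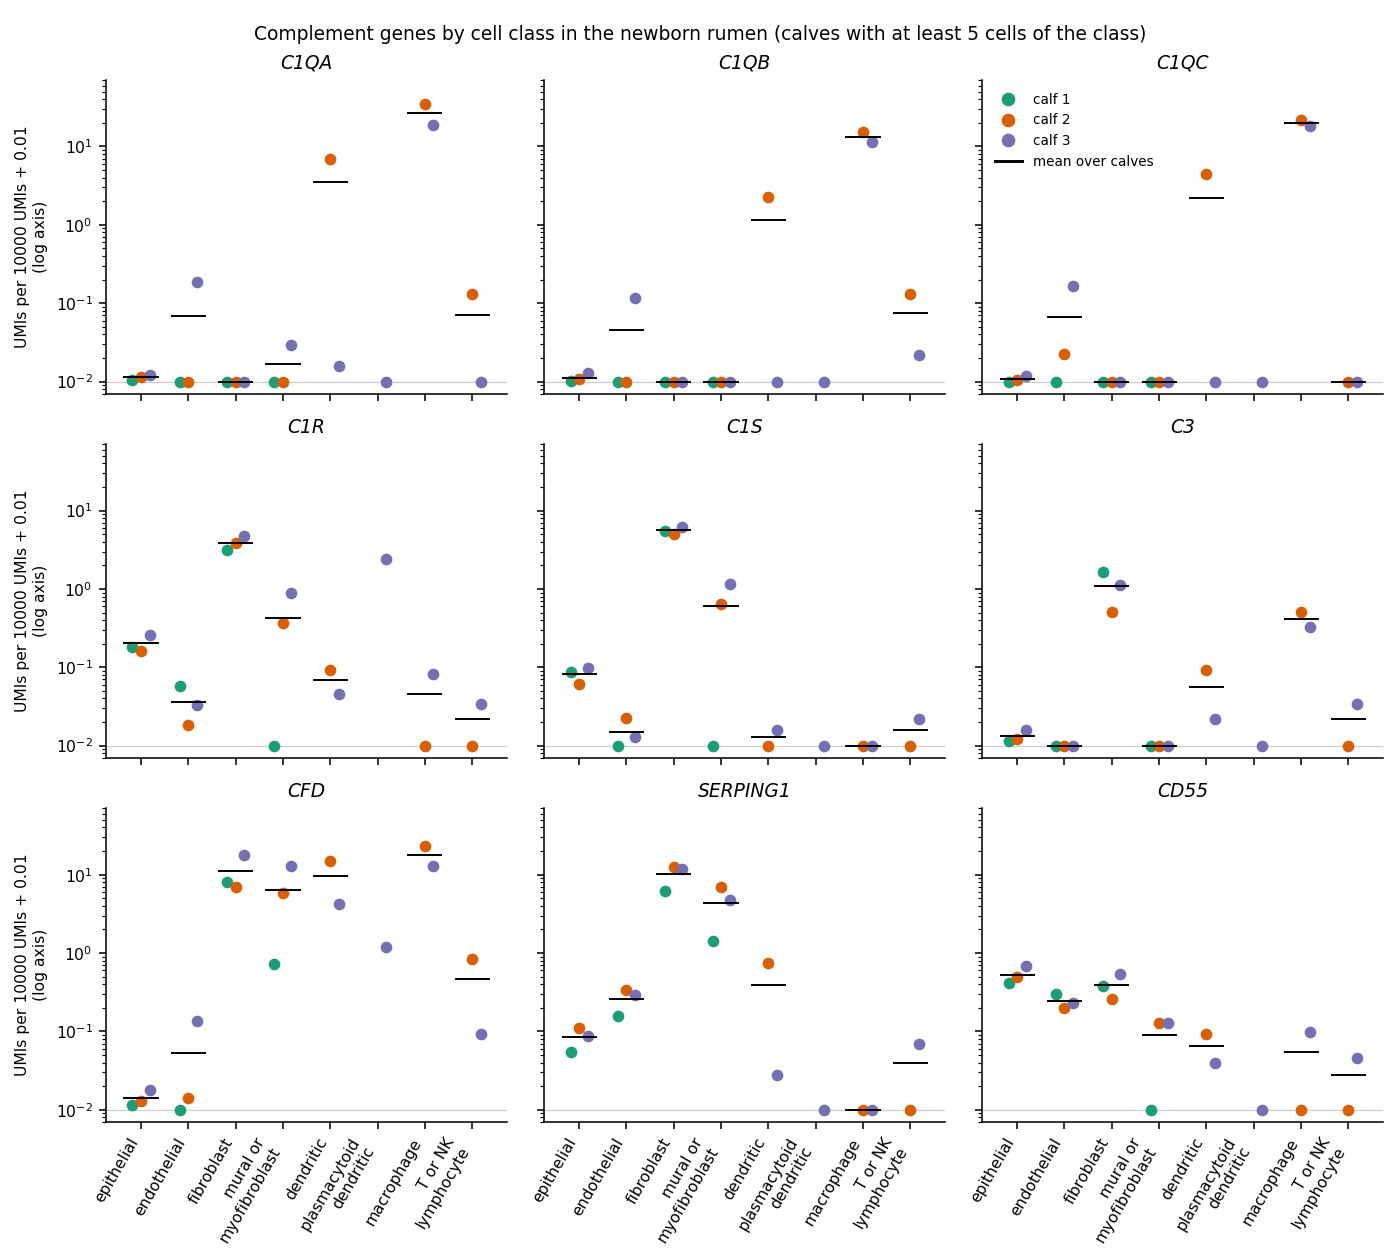
Level of each complement gene by cell class, in UMIs per 10000 plus 0.01 on a log axis; points are calves with at least 5 cells of the class and the bars are means over calves. The C1q chains stand highest in macrophages, C1R, C1S, C3 and SERPING1 in fibroblasts, CFD in macrophages, fibroblasts, dendritic and mural cells, and CD55 in epithelial cells with fibroblasts close by.

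**Figure D3:**
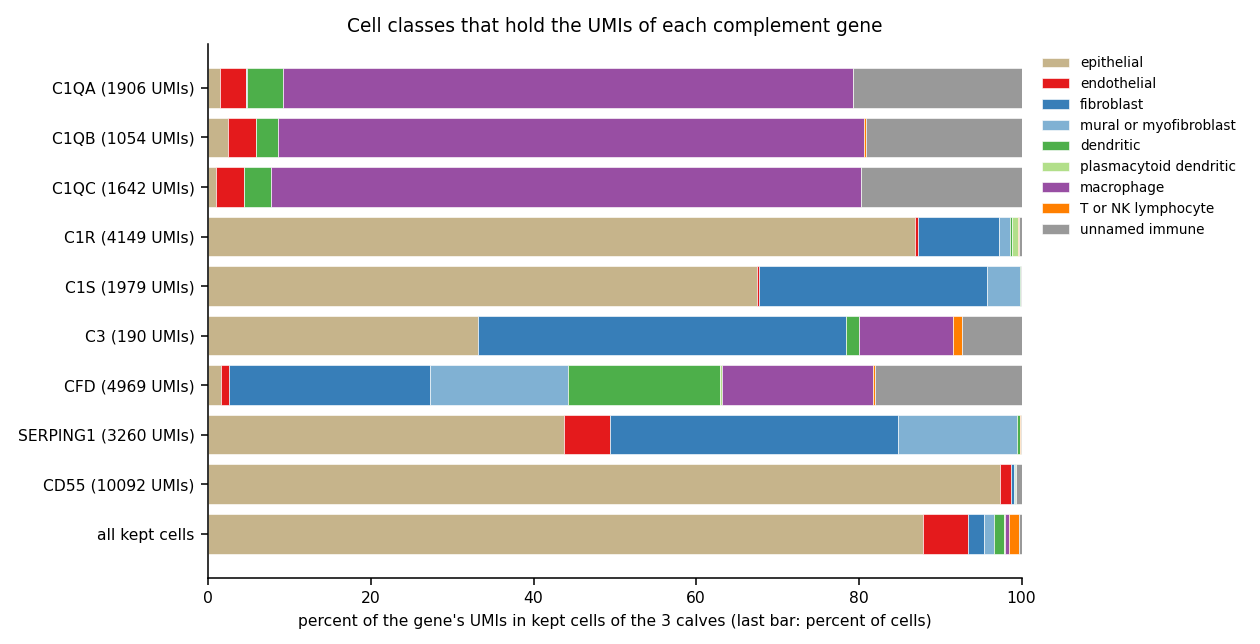
Percent of the UMIs of each complement gene that each cell class held over the 3 calves, with the makeup of all kept cells in the bottom bar. Macrophages hold 70.04% to 72.5% of the C1q chains, epithelial cells 97.4% of CD55 and 87.0% of C1R, and CFD is spread over 5 classes.

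Fibroblasts fell into 2 clusters that differed in their complement genes. One, led by LUM (a collagen-binding proteoglycan) and CXCL14, had 9, 157 and 152 cells in calves 1, 2 and 3, and the other, led by collagen genes, DLK1 and MFAP5 (a microfibril protein), had 7, 67 and 74. Epithelial markers in the MFAP5 cluster summed to 153, 37.5 and 11.1 in calves 1, 2 and 3. In the LUM cluster they summed to 13.1, 23.0 and 16.5. C3 was at 0, 0 and 0.206 in the LUM cluster and at 2.59, 1.42 and 2.47 in the MFAP5 cluster. CFD ran the other way, at 18.1, 10.1 and 28.1 in the LUM cluster against 2.30, 1.04 and 3.22. Within each calf C3 was higher in the MFAP5 cluster and CFD in the LUM cluster. C1R was at 2.01, 2.14 and 2.85 in the LUM and 3.74, 6.99 and 7.36 in the MFAP5 cluster, and C1S at 4.53, 3.47 and 5.32 against 6.04, 7.96 and 7.56. The C1 proteases were thus higher in the MFAP5 cluster in each calf.

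SERPING1 was 7.95 and 9.98 in the LUM cluster of calves 2 and 3 against 20.5 and 14.4 in the MFAP5 cluster, while in calf 1 it was 6.55 against 6.04. CD55 showed no common direction, with 0, 0.210 and 0.618 against 0.575, 0.324 and 0.403. In thinned cells CFD was found in 67.0% (73 of 109) of the LUM and 16.3% (14 of 86) of the MFAP5 cells, and C3 in 2.75% (3 of 109) and 25.6% (22 of 86). The unthinned shares were 60.7% and 15.5% for CFD and 1.89% and 28.4% for C3. Median depths were 1779.5 and 2229.5 UMIs. The contrast was seen in the data before it was described and carries no test.

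**Figure D4:**
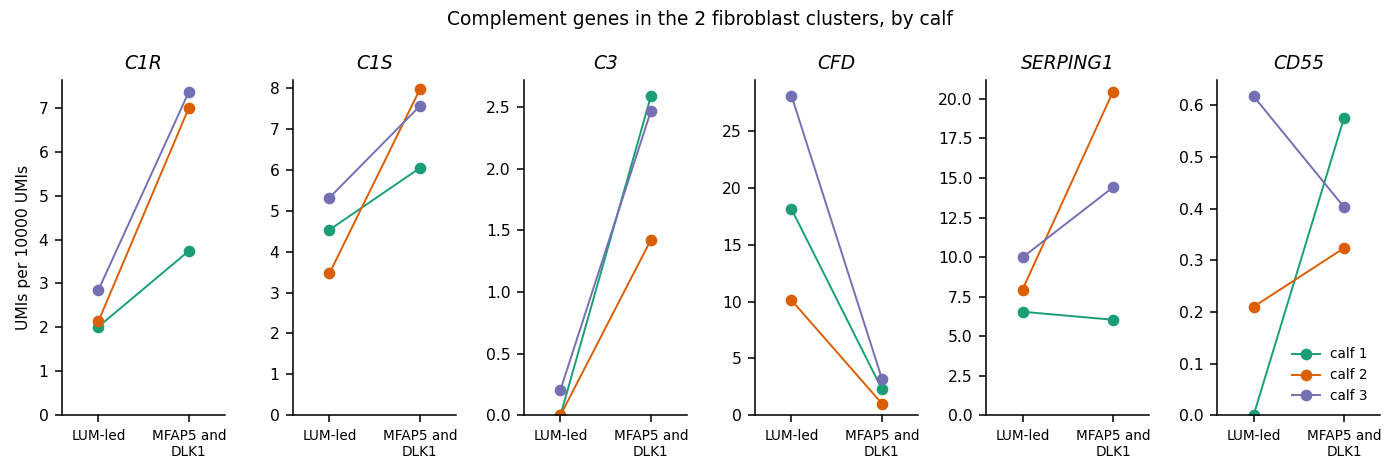
Level of 6 complement genes in the LUM-led and the MFAP5 and DLK1 fibroblast clusters, in UMIs per 10000; each line joins the values of 1 calf. C1R, C1S and C3 rise and CFD falls from left to right in all 3 calves, and SERPING1 and CD55 do not move the same way in all calves.

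Within the epithelium the C1 proteases varied between clusters more than CD55 did. The C1R level was lowest in the spinous cluster led by SPINK5 and KRTDAP (genes of differentiating keratinocytes), at 0.0271, 0.0260 and 0.0764 in calves 1, 2 and 3. It was also low in the mitotic cluster led by CENPF and TOP2A, with 0.0681 ± 0.0288 over the 3 calves. The highest means were those of the clusters led by ADAMTSL5, by RGS4, PLAC8 and IFI6, and by PPM1N and GADD45G, at 0.299 ± 0.175, 0.276 ± 0.0638 and 0.259 ± 0.0827. Another cluster led by RGS4 and PLAC8, followed by DCN, was at 0.222 ± 0.0820. In every calf the spinous and the mitotic cluster lay below these 3. The ADAMTSL5 cluster also had the mitochondrial genes ATP6 and ND3 among its leading genes. Its C1R level rests on 41 UMIs in 489 cells. In thinned cells its C1R share was 4.47% ± 4.30. That share was 6.14% ± 1.38 in the cluster led by RGS4, PLAC8 and IFI6 and 5.54% ± 1.44 in the PPM1N cluster. Unthinned, the shares were 8.07%, 16.6% and 18.5%.

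C1S was lowest in the spinous cluster, at 0.0134 ± 0.0106, and in the mitotic cluster, at 0.0243 ± 0.0134. It was highest in the ADAMTSL5 cluster at 0.166 ± 0.106, on 23 UMIs. CD55 ranged from 0.398 ± 0.0930 in the cluster led by the replication genes UHRF1 and RRM2 to 0.942 ± 0.389 in the ADAMTSL5 cluster, and stood at 0.541 ± 0.0475 in the spinous cluster. SERPING1 was between 0.0180 and 0.141 in the clusters shown, and in the spinous cluster of calf 2 it was 0.167 against 0 and 0.0102 in calves 1 and 3. These clusters carry no test.

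**Figure D5:**
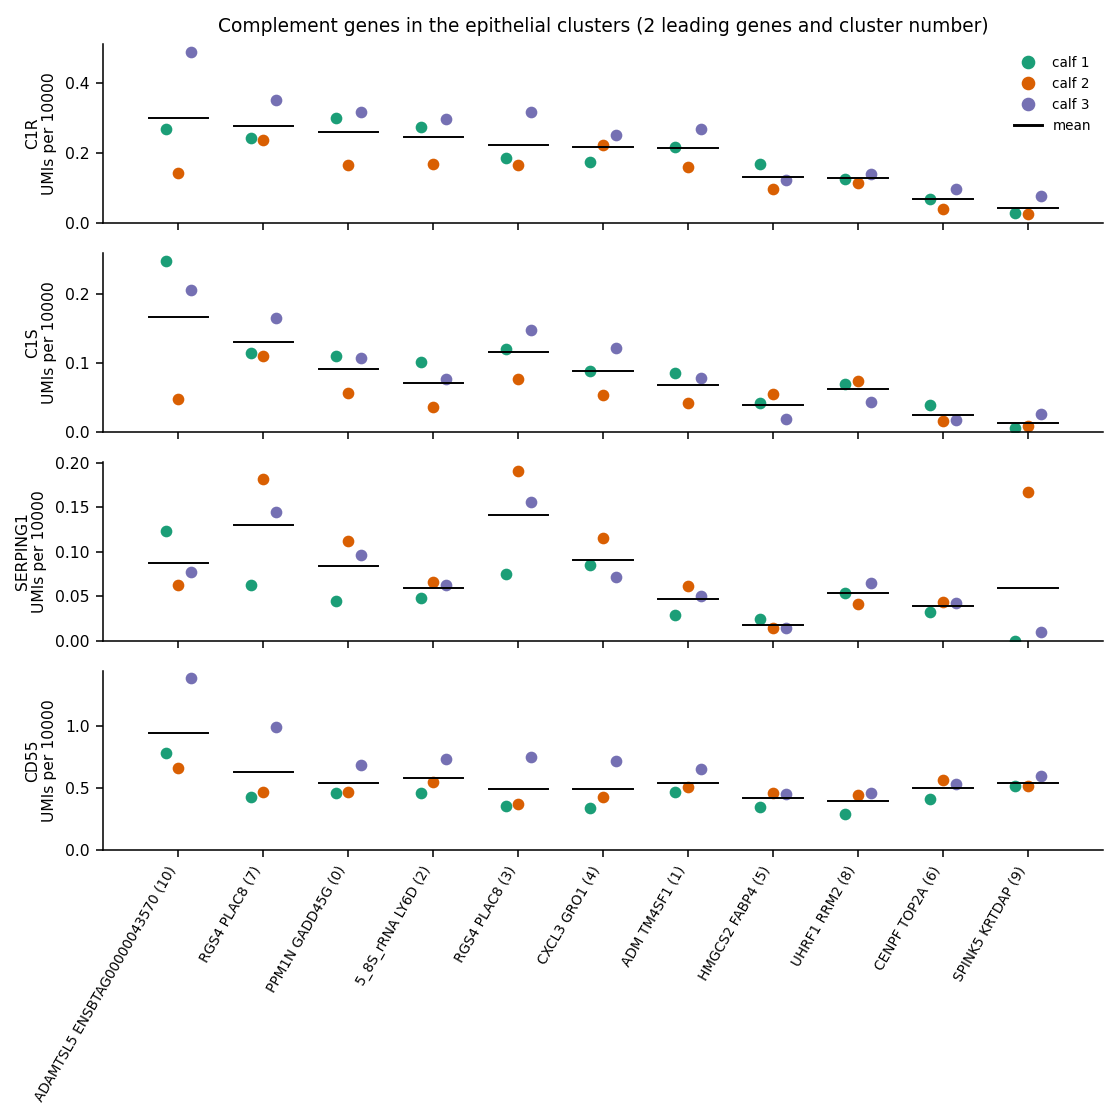
Level of 4 complement genes in 11 epithelial clusters, in UMIs per 10000, ordered by mean C1R; points are calves with at least 20 cells of the cluster and bars are means over calves. C1R falls from 0.299 on the left to 0.0432 in the spinous cluster on the right, where CD55 is 0.541, near its value in most other clusters.

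Levels were tested between classes with edgeR's quasi-likelihood test on UMI counts summed per calf and class, with calf as a block and Benjamini-Hochberg adjustment over 10157 genes. The p-values rest on the spread of the calf-by-class sums around the fit, estimated jointly over all classes. Immune classes enter with 2 calves and share the spread of the other classes. All 9 members passed the filter on low counts. The C1q chains had 70.04% to 72.5% of their UMIs in macrophages and may have passed it through that class. Their calls thus add no separate support to the levels above. Fitted log2 differences are scaled between libraries by TMM and differ from the ratio of the levels: C1R in fibroblasts over epithelial cells was 3.89 fitted and 4.34 as the ratio of means.

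In fibroblasts against epithelial cells, 6 of 9 members passed, 5 higher and 1 lower, where 34.7% of all genes passed, 17.4% higher and 17.3% lower. C1R was higher by 3.89 ± 0.30 (SE) on the log2 scale (adjusted p = 3.19e-12), C1S by 5.80 ± 0.33 (2.86e-15), C3 by 7.66 ± 0.56 (8.15e-12), CFD by 10.99 ± 0.76 (2.00e-13) and SERPING1 by 6.60 ± 0.44 (1.59e-13), edgeR throughout. CD55 was lower, at -0.93 ± 0.33 (edgeR adjusted p = 0.0270), and this call was lost without calf 2, at -0.65, without calf 3, at -1.17, with DESeq2, at -0.59, without the calf block, at -0.88, with doublets kept, at -0.66, and with the FCN1 cluster counted as macrophages, at -0.84. The 5 higher members were called whichever calf was left out. The median over the members was 3.89, against -0.14 over all genes.

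In mural cells against epithelial cells, 5 members passed, 4 higher and 1 lower, where 27.8% of all genes passed, 13.3% higher and 14.4% lower. CFD, SERPING1 and C1S were higher, by 10.08 ± 0.75 (adjusted p = 1.36e-12), 5.36 ± 0.43 (1.69e-11) and 3.01 ± 0.36 (5.49e-08), and CD55 was lower, at -2.74 ± 0.44 (1.09e-05), all by edgeR. C1R was higher by 1.02 ± 0.35 (edgeR adjusted p = 0.0288), a call that was lost without calf 2, at 1.04, without calf 3, at 0.53, and without the block, at 1.11. In fibroblasts against mural cells, 5 members were higher and 0 lower, where 10.7% of all genes passed, 6.22% higher and 4.47% lower. C1R and C1S led by 2.86 ± 0.35 and 2.79 ± 0.34 (edgeR adjusted p = 3.88e-07 and 4.07e-07), followed by CD55 at 1.81 ± 0.53 (0.0238) and SERPING1 at 1.24 ± 0.38 (0.0327); C3 was called as well but gets no fold, as mural cells had 0 UMIs. CFD did not pass, at 0.91 ± 0.54 (edgeR adjusted p = 0.359). CD55 lost its call without calf 2, at 2.27, or calf 3, at 1.29, and SERPING1 without calf 1, at 1.07, calf 3, at 1.18, or the block, at 1.11.

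In endothelial against epithelial cells, 8 members passed, 5 higher and 3 lower, where 43.2% of all genes passed, 21.0% higher and 22.1% lower. C1R, C1S and CD55 were lower, at -3.90 ± 0.44, -3.96 ± 0.59 and -1.71 ± 0.27 (edgeR adjusted p = 6.87e-09, 1.42e-06 and 3.57e-06), and SERPING1 was higher by 1.29 ± 0.40 (0.00999), a call lost without the block, at 1.395, and with DESeq2, at 1.48. The 3 C1q chains and CFD were also called higher, by 4.53 for C1QB to 5.72 for C1QC and 3.15 for CFD. The calls for C1QA, C1QB and CFD were lost without calf 3, the calf with the 2 C1q-rich cells. A fit without only those cells was not run. Without calf 3 the fitted values of C1QA, C1QB and CFD were -3.64, -2.85 and -0.09, with 0 UMIs of C1QA and C1QB left in endothelial cells. C1QC, at 3.96, was still called, but on 3 UMIs in 2 of the 548 endothelial cells of calf 2. With DESeq2 none of the 3 chains was called. In fibroblasts against endothelial cells, C1R, C1S, C3, CFD and SERPING1 were higher and 0 members lower, where 25.3% of all genes passed, 13.3% higher, and CD55 did not pass, at 0.78 ± 0.37 (edgeR adjusted p = 0.129). Without calf 2, C1QA and C1QC were called as well, lower in fibroblasts, which held 0 UMIs of them.

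In dendritic against epithelial cells, 7 members passed, 4 higher and 3 lower, where 41.5% of all genes passed, 20.3% higher and 21.2% lower. CFD was higher by 10.39 ± 0.77 (edgeR adjusted p = 1.23e-12), and C1R, C1S and CD55 were lower, at -2.89 ± 0.59, -4.15 ± 1.00 and -4.41 ± 0.54. Without calf 3 these 3 were no longer called, at -1.57, -9.16 and -2.997. The C1q chains were called higher through calf 2, and without it C1QA was at 0.84, C1QB at -4.64 and C1QC at -4.11. With DESeq2, C1QB and C1QC were not called. SERPING1, with its 12 UMIs in 2 dendritic cells, did not pass, at -0.12, and its sign depended on the calves and on the fit. In lymphocytes against epithelial cells 4 members passed, 1 higher and 3 lower, where 30.5% of all genes passed, 14.0% higher and 16.5% lower, CFD being higher by 4.89 ± 1.12 (edgeR adjusted p = 0.000978) and C1R, C1S and CD55 lower; without calf 3, CFD alone was called, at 7.58, and without calf 2 it was at 3.11. The CFD call was lost without Harmony, at 2.77, and C1S was not called without the block, at -2.96, with DESeq2, at -2.53, or without Harmony, at -2.45.

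In macrophages against dendritic cells, with 2 calves a class, C1QB and C3 were higher, with 0 members lower, where 1.02% of all genes passed, 0.778% higher and 0.246% lower. The differences were 4.77 ± 1.04 for C1QB (edgeR adjusted p = 0.0198) and 4.24 ± 1.03 for C3 (0.0379). C1QB had 123 and 633 UMIs in macrophages of calves 2 and 3, against 28 and 0 in dendritic cells. C3 had 4 and 18 UMIs against 1 and 2, too few for a firm fold. C1QA and C1QC did not pass, at 3.54 ± 1.05 (edgeR adjusted p = 0.130) and 3.94 ± 1.09 (0.102), with the 7 C1q-rich dendritic cells of calf 2 in the comparison. Without calf 2, 4 members were called, C1QA and C1QC included, and without calf 3 C3 was lost, at 2.44, and C1QC was called, at 2.18. In the fit without the calf block and with DESeq2 no member was called, with 5 and 2 members at an unadjusted p under 0.05. In lymphocytes against dendritic cells CFD was lower, at -5.50 ± 0.92 (edgeR adjusted p = 6.60e-05), and C1QA at -6.92 ± 2.17 (0.0321), with 0 members higher, where 12.6% of all genes passed, 4.99% higher and 7.56% lower. The C1QA call was lost without calf 1, at -6.82, without calf 2, at -5.31, and without the block, at -7.75, and without calf 3 C1QB and C1QC were called as well. Where calf 2 or 3 is left out, each immune class keeps 1 calf in every comparison, which is assumed to vary like the other classes.

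Other genes of the pathway were taken from a list of 56, of which 51 were in the matrices and 17, members included, reached a level of 1 in some class. Fibroblasts led in C4A, the next component of the classical pathway, at 1.70 ± 0.482, and in the collectin gene COLEC12 at 8.36 ± 2.87. They also led in the soluble regulator CLU (clusterin) at 10.6 ± 3.29. C7, a component of the membrane attack complex, was at 1.69 ± 0.248 in mural cells and 1.26 ± 0.456 in fibroblasts. Endothelial cells led in CD46, a membrane cofactor for cleaving C3b, at 2.81 ± 0.217 and in CD93, a receptor first tied to C1q, at 3.15 ± 0.954. ITGB2, a chain of complement receptor integrins, was at 2.01 in both dendritic cells and macrophages, and C1QBP, a C1q-binding protein found in mitochondria, at 2.73 ± 0.480 in epithelial cells. Between fibroblasts and epithelial cells, 28 genes of the list were tested, of which 11 were higher and 3 lower, where 17.4% of all genes were higher and 17.3% lower, with a median of 1.21 against -0.14 over all genes. With DESeq2, 14 were higher and 2 lower, with a median of 2.90 against 0.32. Between macrophages and dendritic cells, 5 of 28 were higher and 0 lower by edgeR, where 0.778% of all genes were higher and 0.246% lower, and 0 were called with DESeq2 or without the block.

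The genes whose patterns were most like the members' over the 19 calf-by-class sums were found by the Pearson correlation of log2(level + 0.1) among 3081 genes. The sums share libraries and cell classes, so r is a description. For all 3 C1q chains they were TTR, BRB and FOLR2, with r between 0.961 and 0.983, all 3 highest in macrophages. For C1R they were LAMA2 (0.873), COLEC12 (0.856) and PDGFRL (0.841), and for C1S EFEMP2 (0.986), GLT8D2 (0.985) and FMOD (0.984), all highest in fibroblasts. For C3 they were CHI3L1 (0.927), PTGS1 (0.926) and SERPINF1 (0.898), and for CFD AXL (0.937), GLIPR2 (0.936) and GSN (0.877). For SERPING1 they were NFATC4 (0.979), ASPN (0.968) and NR2F1 (0.966). CD55 was most like ENSBTAG00000051082 (0.881), PRORSD1 (0.850) and SSRP1 (0.839), highest in epithelial cells.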

How the data were processed

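The authors made the deposited UMI counts per gene and barcode with Cell Ranger 3.1.0 on the ARS-UCD1.2 assembly, without normalization, 1 matrix per calf. Barcodes were kept from 500 to 4000 genes, up to 50000 UMIs and up to a 40% mitochondrial share, and 1919 doublets were removed by a score against simulated doublets, in place of DoubletFinder. The 2000 most variable genes outside the complement list were reduced to principal components, merged over calves with an implementation of Harmony, and clustered by Leiden (leidenalg 0.10.2) at resolution 0.1, with immune and epithelial cells clustered again at 0.8. A cluster was named from a marker list with at least 3 markers at 2-fold over the other cells or, for the broad classes, at 0.25 of their highest cluster level. This naming rule was set after the data were seen, and a difference from the study may come from rebuilt names. The members and lists were chosen with earlier results of these data known.

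Levels are UMIs per 10000; shares are of cells with a UMI, also after thinning to 2000 UMIs with shallower cells left out, which kept 20377 of 20800 epithelial cells, 1164 of 1306 endothelial cells, 195 of 466 fibroblasts, 216 of 305 mural cells, 259 of 271 dendritic cells, 107 of 114 macrophages and 222 of 290 lymphocytes. Tests used edgeR 4.0.16 on counts of 19 sums of at least 5 cells, with DESeq2 1.42.0 as an alternative (R 4.3.3, Python 3.11.15). The calf is a block because sums of a calf come from the same animal and library; deviations of such sums correlated at a median of 0.124 over 48 pairs, against -0.0706 over 90 pairs of different calves. On simulated counts for fibroblasts against epithelial cells over 8833 genes, 80.4% of 4-fold and 14.6% of 2-fold changes were recovered. Named beside the members were list genes at a level of 1 in some class and the 3 genes most like each member. A result that this rule names is not reported here. Sequences and coordinates are not given, as no genome of the files' build was used here.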

Additional observations from a re-analysis of the deposited data

Results flagged for a closer look

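Complement UMIs were also found in barcodes outside the gene range, above the level that 3 counts give. In 3392 barcodes with under 500 genes, where that level is 0.00580, the C1q chains were at 0.0483 UMIs per 10000 (25 UMIs), the C1 proteases at 0.108 (56), C3 with factor D at 0.143 (74) and the regulators SERPING1 and CD55 at 0.276 (143). In 1621 barcodes with over 4000 genes, where it is 0.000601, they were at 0.0393 (196 UMIs), 0.158 (788), 0.0286 (143) and 0.565 (2822). What kind of barcodes these are was not tested.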

How the results depend on the processing

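Of the levels the text turns on, 84 values under an alternative moved by less than 1 SD between calves and 16 by more. With no upper limit on genes, fibroblast C1R was 2.33, C1S 4.44 and C3 0.0686, and macrophage C1QC 24.8. In that setting the MFAP5 fibroblasts joined the mural cells, which were then not named. With doublets kept, fibroblast C1R was 2.93 and C1S 4.14, and macrophage C1QB 15.9 and C1QC 26.8. Classes from each cell's marker genes gave 4.66 for fibroblast C1S and 32.9 for macrophage CFD. Reclustering at resolution 0.4 left macrophages in 1 calf, with C1QA at 43.0, C1QB at 22.8 and C1QC at 39.9. Counting the FCN1 cluster as macrophages, chosen after seeing the data, gave C1QB 8.88, C1QC 14.0 and CFD 26.5.

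Shares followed the depth. At 1000 UMIs the thinned share was 5.37% for epithelial CD55, and 27.7%, 40.1%, 5.68% and 57.2% for fibroblast C1R, C1S, C3 and SERPING1. Requiring at least 2 UMIs gave 0.709% for epithelial CD55, 17.7%, 24.1% and 45.9% for fibroblast C1R, C1S and SERPING1, and 68.4% for macrophage CFD.

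The count of members called with DESeq2 was 4 for endothelial against epithelial cells, 0 for macrophages against dendritic cells (2 at an unadjusted p under 0.05) and 1 for lymphocytes against dendritic cells. Without the replicate block it was 0 (5 unadjusted) and 1 in the last 2, where genes called went from 104 to 7 and from 1275 to 787, and between fibroblasts and mural cells from 1086 to 685. The block changed no other count by over 1.5 times, and the single calls it changed stand beside their results. With no filter on low counts, members called were 8 for fibroblasts against endothelial cells, 4 for macrophages against dendritic cells, with 188 genes, and 4 for lymphocytes against dendritic cells. With doublets kept they were 1 and 5 in the last 2. Marker-gene classes gave 3 for mural and 7 for lymphocytes against epithelial cells, 4 for macrophages against dendritic cells, with 204 genes, and 4 for lymphocytes against dendritic cells. Without Harmony 2 were called for lymphocytes against epithelial cells. With the FCN1 cluster as macrophages, 5 members and 214 genes were called against dendritic cells. Where no count of genes stands beside a count of members, it shows only the change from the main fit. Such a count is not a result about the members.

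Leaving out each calf gave 5 to 8 members for endothelial and 1 to 4 for lymphocytes against epithelial cells, 3 to 4 for fibroblasts against mural cells, 2 to 4 for macrophages and 1 to 4 for lymphocytes against dendritic cells. Genes called ranged from 1923 to 3348 for fibroblasts, 2792 to 3936 for endothelial, 1477 to 2648 for mural, 1338 to 4174 for dendritic cells and 725 to 3092 for lymphocytes against epithelial cells. They ranged from 1502 to 2505 for fibroblasts against endothelial and 468 to 1044 against mural cells, and from 13 to 98 for macrophages and 141 to 1314 for lymphocytes against dendritic cells. Of the members' log2 differences that had been called, 5 reversed and were then not called. Over the calves left out, endothelial against epithelial C1QA ranged from -3.64 (without calf 3) to 5.53, C1QB from -2.85 (without calf 3) to 4.71 and CFD from -0.0897 (without calf 3) to 3.39, and dendritic against epithelial C1QB from -4.64 (without calf 2) to 10.83 and C1QC from -4.11 (without calf 2) to 12.36. SERPING1 in dendritic against epithelial cells, not called at -0.12, ranged from -2.71 (without calf 2) to 2.21 (without calf 3), both called, and was 0.90 with DESeq2 and 0.57 without the replicate block, neither called. The cause was not tested.

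DESeq2 moved the median of all genes for fibroblasts against epithelial cells from -0.14 to 0.32, and the split of higher and lower genes from 1766 and 1762 to 2548 and 1122. For mural against epithelial cells the split went from 1355 and 1467 to 1773 and 1051, and for lymphocytes from 1423 and 1673 to 1653 and 1291. No macrophages were named without Harmony or at a 20% mitochondrial limit, and at a minimum of 20 cells dendritic cells and macrophages could not be tested. Depth limits C3 most, with 190 UMIs.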
